A study of Mus musculus with 20 samples.

Results

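Macrophages clear dying cells and modified lipoproteins through receptors that bind them directly and through soluble bridging proteins that link them to the phagocyte. Of these genes 10 were examined in dural CNS-associated macrophages (dCAMs), chosen by name: the receptors Mertk and Axl, the bridging ligands Gas6, Pros1 and Mfge8, the scavenger receptors Msr1, Marco, Scarb1 and Olr1, and the secreted scavenger protein Cd5l. They are 10 of the 33243 gene symbols counted, and all 10 were among the 16632 genes tested, Cd5l only through the counts of 1 library. The choice was made with earlier results of these data known.

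Mertk and Axl are receptor tyrosine kinases of the TAM family, whose ligands Gas6 and protein S (Pros1) bind phosphatidylserine exposed on apoptotic cells. Mfge8 bridges the same lipid to integrins of the phagocyte. Msr1 and Marco are class A scavenger receptors that take up modified lipoproteins and microbial ligands, Scarb1 is the receptor for high-density lipoprotein, Olr1 is a lectin-like receptor for oxidized low-density lipoprotein, and Cd5l is a protein secreted by resident macrophages of several tissues. Uptake of dying cells by tissue macrophages is usually anti-inflammatory, and Toll-like receptor signals such as bacterial lipopolysaccharide (LPS) are known to change the expression of its receptors.

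The libraries came from 10 Ccr2creERT2/+ R26tdT/tdT mice, in which tamoxifen switches on the red protein tdTomato (tdT) wherever Ccr2 is active during the treatment. All of the mice, controls included, had been given the CSF1R inhibitor BLZ945 at 200 mg/kg for 7 days, which depletes macrophages, and tamoxifen at 2 mg per day around its end. After 8 weeks 5 mice received LPS at 2.5 mg/kg and 5 mice received PBS (CTL), and 12 h later CD45int CD11b+ CD206int-high cells of the dura were sorted and split by tdT, giving 1 tdT+ and 1 tdT- library per mouse. The groups are therefore tdT- CTL, tdT+ CTL, tdT- LPS and tdT+ LPS, with 5 libraries each, the CTL mice being numbered 174, 175, 177, 178 and 179 and the LPS mice 54, 56, 59, 60 and 61. The tdT label records Ccr2 expression at the time of tamoxifen, and tdT- cells may include cells of the same origin that did not recombine. Sample titles carry the letter F or M, and both letters occur among the CTL and among the LPS mice. Treatment and mouse series coincide, so that LPS and any batch between the series cannot be told apart.

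Libraries held 6017650 to 12208203 counts in CTL mice and 12073566 to 18925908 counts in LPS mice. Genes with at least 10 counts numbered 6671 to 9365 in the tdT- CTL libraries and 10024 to 11987 in the other 15. The summed level of 14 macrophage and dCAM markers, among them Mrc1, Pf4 and Csf1r, was 19228 to 40602 CPM (counts per 1e6, with TMM-scaled library sizes) in tdT- CTL and 41598 to 47989 in tdT+ CTL libraries. It was 13632 to 18433 CPM in tdT- LPS and 17662 to 21117 in tdT+ LPS libraries, with all 14 markers detected. Sums of 8 monocyte markers were higher in LPS than in CTL mice (1268 against 534 CPM, two-sided exact permutation p = 0.00794 over 5 against 5 mice, the smallest p this design allows), as were those of 10 neutrophil markers (807 against 457 CPM, exact p = 0.0476). Sums of 7 dendritic cell markers were lower (248 against 900 CPM, exact p = 0.00794), with Xcr1 at or under 3 counts in every library. In bulk libraries, fewer cells of a type and less RNA per cell cannot be told apart.

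Of the 4 members that passed in both populations, RefSeq start sites with promoter sequence were at hand for Gas6 and Mfge8, the bridging ligands that fell together, and not for Msr1 and Scarb1. The 250 bases before the start are shown for both (GRCm38, 5′ to 3′ on the strand of the gene, which is the minus strand for both), from chr8:13494536-13494785 for Gas6 and from chr7:79149061-79149310 for Mfge8. Capitals would mark matches to any of 5 motifs searched on both strands, and there were none.

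Gas6: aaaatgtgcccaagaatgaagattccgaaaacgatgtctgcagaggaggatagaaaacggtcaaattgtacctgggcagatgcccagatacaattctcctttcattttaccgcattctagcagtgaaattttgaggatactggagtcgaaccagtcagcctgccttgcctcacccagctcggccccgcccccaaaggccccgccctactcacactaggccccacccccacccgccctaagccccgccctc
Mfge8: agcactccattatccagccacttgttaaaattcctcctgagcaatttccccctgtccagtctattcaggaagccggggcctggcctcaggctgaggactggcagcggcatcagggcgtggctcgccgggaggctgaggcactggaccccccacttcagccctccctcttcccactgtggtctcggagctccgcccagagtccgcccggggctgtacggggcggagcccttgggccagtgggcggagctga

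The motifs were GGNNTTTCC (NF-kB), found in 4.93% of the 32851 windows of the same length, TGACTCA (AP-1, 4.46%), TTCNNNGAA (STAT, 7.02%), GAAANNGAA (interferon response, 7.13%) and GAGGAAG (PU.1, 10.6%). No match says only that these letters are absent from the window shown. The windows of Gas6 and Mfge8 held 54.8% and 65.2% G or C, beside a median of 52.4% over all windows. Among the other 6 members with a window, Olr1 held an AP-1 match, Pros1 a STAT match, Axl and Cd5l a PU.1 match, Marco an NF-kB and a PU.1 match, and Mertk none.

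LPS was accompanied by opposite changes within this set of genes. By the threshold given next, 2 bridging ligands and the lipoprotein receptor Scarb1 passed as lower in both populations, and the scavenger receptor Msr1 passed as higher in both. In tdT- dCAMs 7 of the 10 genes passed the threshold (adjusted p under 0.05 and absolute log2 fold change over 1, edgeR), 3 higher and 4 lower. Of all genes tested, 11.5% passed, 7.2% higher and 4.27% lower. The count in tdT+ dCAMs was 4 of the 10, 1 of them higher and 3 lower, where 5.89% of all genes passed, 3.37% higher and 2.52% lower. The libraries of LPS and CTL mice did not overlap for 6 of the 10 genes in tdT- dCAMs, beside 12.6% of all genes, and for 8 of the 10 in tdT+ dCAMs, beside 17.8%. The median log2 fold change of the 10 genes was -0.32 in tdT- and -1.0 in tdT+ dCAMs, and that of all genes was 0.02 and 0.01. The medians of the 10 were the same with Olr1 and Cd5l set to their bounds against a floor of 3 counts, where a bound existed. In tdT- dCAMs Cd5l had no counts in either group and entered at 0, so that this median lies between Axl, at -0.63, and that 0. Positions below are those of the protein-coding genes on GRCm38.

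**Figure D1:**
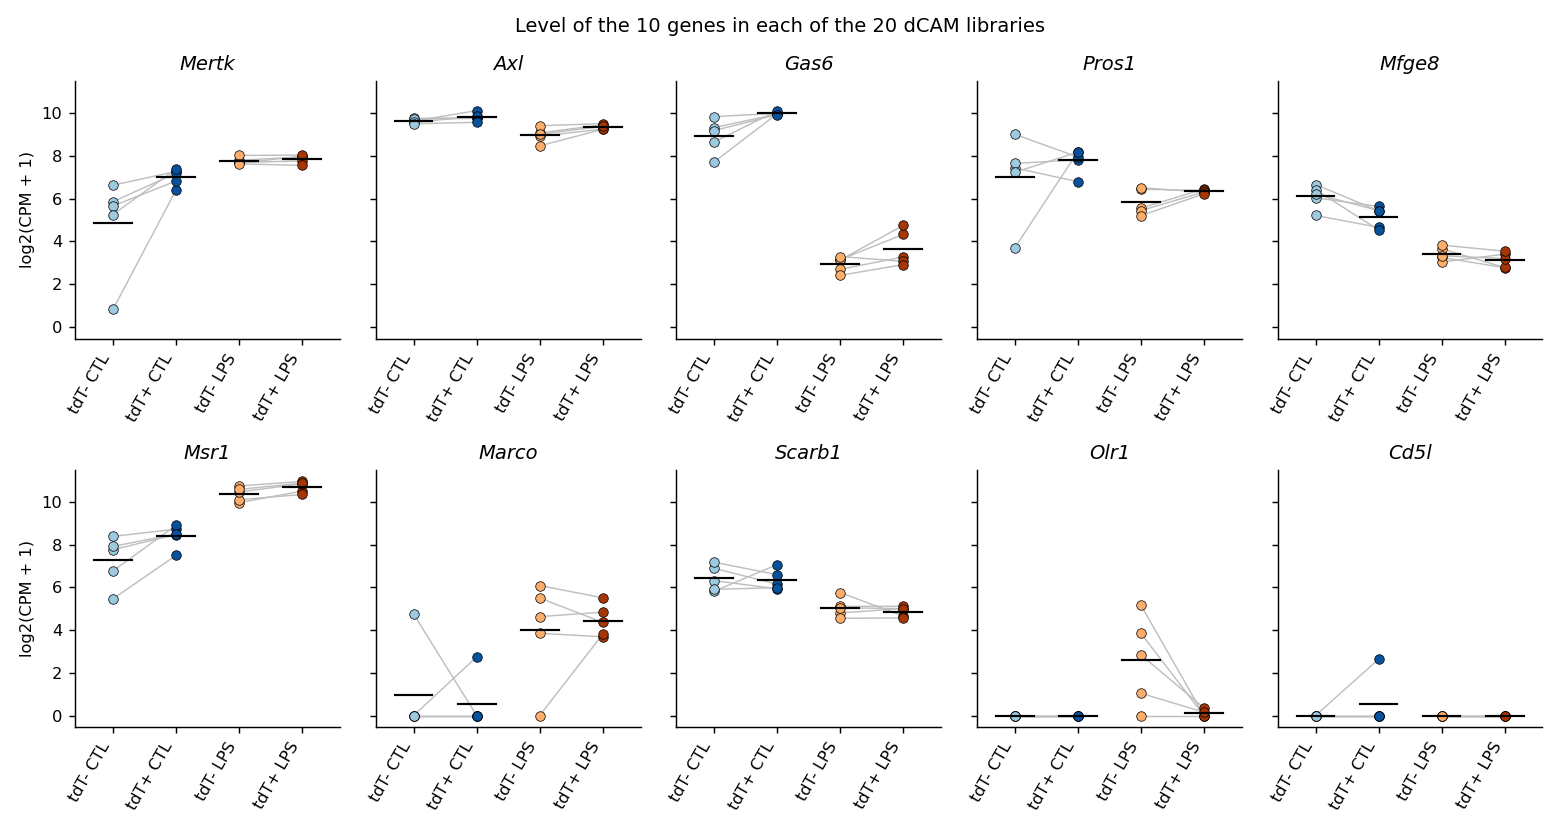
Level of each gene as log2(CPM + 1) in the 20 libraries, by group. Points are libraries, grey lines join the tdT- and tdT+ libraries of a mouse and black bars are means of the plotted values. Gas6 and Mfge8 sit lower and Msr1 sits higher in all 10 LPS libraries than in any of the 10 CTL libraries.

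Gas6, the ligand of all TAM receptors (chr8:13465374-13494490, minus strand), had the largest change of the 10 genes by fitted fold among those detected in all groups. Its level in tdT- CTL libraries was 209, 640, 911, 401 and 580 CPM in the order of mice above, and in tdT- LPS libraries it was 7.86, 7.76, 5.47, 8.77 and 4.31 CPM. In tdT+ libraries it was 1003, 990, 1018, 1104 and 974 CPM in CTL and 19, 25.8, 8.63, 7.35 and 6.53 CPM in LPS mice. The lowest CTL library, tdT- 174, was thus well above the highest LPS library, tdT+ 56. Group means fell from 548 ± 263 to 6.83 ± 1.86 CPM (SD, n = 5) in tdT- dCAMs, an 80.1-fold decrease with a log2 fold change of -6.32 ± 0.46 (SE; edgeR adjusted p = 9.24e-09). In tdT+ dCAMs they fell from 1018 ± 51.0 to 13.5 ± 8.55 CPM (SD, n = 5), a 75.6-fold decrease with a log2 fold change of -6.24 ± 0.46 (SE; edgeR adjusted p = 8.47e-09). The call held in both populations under each of the 20 alternative fits and left-out mice, with log2 fold changes of -6.55 to -6.06 in tdT- and -6.62 to -6.06 in tdT+ dCAMs. Gas6 overlaps Tmem255b on the other strand, and the libraries did not keep strand, but Tmem255b had 105 counts over all 20 libraries together.

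Mfge8 (chr7:79133768-79149060, minus strand) was a gene of lower abundance that fell in the same direction. Its level was 64.7, 36, 99.9, 84.3 and 73.3 CPM in tdT- CTL and 8.49, 11.6, 7.19, 9.02 and 13.2 CPM in tdT- LPS libraries. The tdT+ libraries were at 48.5, 24.2, 42.1, 22.2 and 42.5 CPM in CTL and 5.81, 5.86, 9.53, 8.13 and 10.6 CPM in LPS mice. All 10 LPS libraries were below all 10 CTL libraries. The log2 fold change was -2.86 ± 0.45 (SE; edgeR adjusted p = 0.000153) in tdT- and -2.17 ± 0.43 (SE; edgeR adjusted p = 0.00238) in tdT+ dCAMs, that is 7.24-fold and 4.49-fold lower, and it passed under each of the 20 alternatives.

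Pros1 (chr16:62854307-62929346, plus strand), the second TAM ligand and an anticoagulant cofactor, was lower after LPS with less certainty. Its level was 172, 199, 12.0, 513 and 149 CPM in tdT- CTL and 46.0, 85.7, 89.8, 42.4 and 35.8 CPM in tdT- LPS libraries. The tdT+ levels were 110, 224, 292, 245 and 288 CPM in CTL and 86.5, 82.3, 77.7, 78.3 and 73.7 CPM in LPS mice. The tdT- CTL libraries spread from 12.0 (mouse 177) to 513 CPM (mouse 178) and overlapped the LPS libraries, while the tdT+ groups did not overlap. The log2 fold change was -1.80 ± 0.55 (SE; edgeR adjusted p = 0.0348) in tdT- dCAMs, which passed, and -1.54 ± 0.55 (SE; edgeR adjusted p = 0.111) in tdT+ dCAMs, which did not. The tdT- call was lost without any 1 of the mice 54, 56, 59, 60, 61, 175 or 178 (adjusted p 0.0531 to 0.163), with mouse as a replicate block (adjusted p = 0.23), on the 10 tdT- libraries alone (adjusted p = 0.164) and with quality weights per library (adjusted p = 0.317). In tdT+ dCAMs Pros1 passed in the same 2 fits, on the 10 libraries alone (adjusted p = 0.000414) and with quality weights (adjusted p = 0.000513), and also with DESeq2 (adjusted p = 0.0406), without mouse 177 (adjusted p = 0.0282) and without the 3 tdT- CTL libraries with the fewest detected genes (adjusted p = 0.00182).

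Markers of stromal cells moved in part with these ligands. The sum of 8 endothelial markers was 2.62 to 120 CPM in tdT- CTL, 26.1 to 68.2 in tdT+ CTL, 0.163 to 8.73 in tdT- LPS and 0.417 to 2.61 in tdT+ LPS libraries. The sum of 5 mural cell markers averaged 55.8 CPM in CTL and 10.3 CPM in LPS mice (exact permutation p = 0.00794, n = 5 and 5 mice). The sum of 8 fibroblast markers was 10.9 to 4667 CPM in tdT- CTL and 74.2 to 443 CPM in tdT- LPS libraries, and 141 to 377 and 142 to 399 CPM in tdT+ CTL and LPS libraries (exact permutation p = 0.317 between LPS and CTL mice, n = 5 and 5). In tdT- CTL mouse 174, with sums of 10.9 CPM for fibroblast and 4.86 CPM for endothelial markers, Gas6 was at 209 CPM and Mfge8 at 64.7 CPM, above every LPS library. That Gas6 level was the lowest of the CTL libraries, and the same library had the highest sum of dendritic cell markers, 3346 CPM. The part of the stromal cells, and of the dendritic cells whose markers also fell, in the lower ligand levels was not tested.

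Mertk (chr2:128698956-128802894, plus strand) and Axl (chr7:25757273-25788705, minus strand), the TAM receptors, did not move together. Mertk was at 0.759, 97.7, 56.8, 49.3 and 37.2 CPM in tdT- CTL and at 201, 221, 206, 258 and 196 CPM in tdT- LPS libraries. Levels in tdT+ libraries were 83.1, 153, 145, 112 and 165 CPM in CTL and 252, 246, 216, 261 and 187 CPM in LPS mice. LPS libraries were above CTL libraries without overlap in both populations, and the level of the tdT- CTL library of mouse 174 rested on 5 counts. Mertk rose in tdT- dCAMs with a log2 fold change of 2.16 ± 0.58 (SE; edgeR adjusted p = 0.0166), 4.47-fold. In tdT+ dCAMs the log2 fold change was 0.82 ± 0.56 (SE; edgeR adjusted p = 0.489), which did not pass. Over the 20 alternative fits it was 0.67 to 0.91, under the fold threshold in each, with adjusted p from 0.00798 to 0.662. Fitted on the 10 tdT- libraries alone, the tdT- call was lost (adjusted p = 0.139), and without mouse 174 the log2 fold change was 1.82. Axl was at 790, 861, 843, 755 and 723 CPM in tdT- CTL and 352, 538, 678, 481 and 515 CPM in tdT- LPS libraries. In tdT+ dCAMs the libraries were at 1107, 877, 861, 923 and 759 CPM in CTL and 604, 699, 726, 610 and 666 CPM in LPS mice. LPS libraries lay below CTL libraries without overlap in both populations, with a small difference: the log2 fold change was -0.63 ± 0.15 (SE; edgeR adjusted p = 0.00863) in tdT- and -0.45 ± 0.15 (SE; edgeR adjusted p = 0.0926) in tdT+ dCAMs, neither past the fold threshold. Tyro3, the remaining TAM receptor, averaged 0 CPM in both CTL groups and 1.02 CPM in tdT- LPS libraries.

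Msr1 (chr8:39581685-39642673, minus strand), which encodes scavenger receptor A, was the only gene of the set that passed the threshold as higher in both populations. Its level was 43.0, 216, 333, 108 and 240 CPM in tdT- CTL and 996, 1093, 1710, 1409 and 1530 CPM in tdT- LPS libraries. Among tdT+ libraries the levels were 179, 353, 420, 474 and 359 CPM in CTL and 1447, 1298, 1980, 1832 and 1875 CPM in LPS mice. All 10 LPS libraries were above all 10 CTL libraries. Its log2 fold change was 2.84 ± 0.38 (SE; edgeR adjusted p = 3.23e-05) in tdT- dCAMs, 7.17-fold, and 2.24 ± 0.38 (SE; edgeR adjusted p = 0.000374) in tdT+ dCAMs, 4.72-fold. The tdT+ call held under all 20 alternatives, and the tdT- call was lost in 1 of 20, the fit with quality weights per library (adjusted p = 0.0538). Mean sums of monocyte and neutrophil markers were also higher in LPS mice, as given above. Neutrophil sums overlapped, at 370 to 1070 CPM in tdT+ LPS and 511 to 688 CPM in tdT+ CTL libraries. The part of monocytes and neutrophils in the higher Msr1 was not tested.

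Scarb1 (chr5:125277087-125341094, minus strand), which exchanges cholesterol with high-density lipoprotein, fell by a modest factor. Its level was 55.2, 117, 78.3, 58.8 and 143 CPM in tdT- CTL and 52.9, 26.9, 33.4, 32.0 and 22.4 CPM in tdT- LPS libraries. The corresponding tdT+ levels were 133, 69.4, 59.9, 62.2 and 95.1 CPM in CTL and 24.1, 31.1, 33.7, 31.0 and 22.6 CPM in LPS mice. The groups did not overlap in either population, although the tdT- LPS library of mouse 54 came close to the lowest tdT- CTL library, that of mouse 174. The log2 fold change was -1.43 ± 0.37 (SE; edgeR adjusted p = 0.0131) in tdT- and -1.56 ± 0.37 (SE; edgeR adjusted p = 0.0111) in tdT+ dCAMs, 2.7-fold and 2.94-fold lower. The tdT- call was lost without mouse 56 (adjusted p = 0.0517), without mouse 61 (adjusted p = 0.0508) and on the 10 libraries alone (adjusted p = 0.114).

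The remaining 3 genes were detected in some libraries only. Marco (chr1:120474538-120505024, minus strand) was at 0, 236, 0, 0 and 0 counts in tdT- CTL and 191, 592, 386, 0 and 821 counts in tdT- LPS libraries. For tdT+ libraries the values were 0, 0, 0, 0 and 74 counts in CTL and 157, 237, 396, 165 and 784 counts in LPS mice. Counts were thus seen in 2 of 10 CTL libraries and 9 of 10 LPS libraries, and the groups were apart only in tdT+ dCAMs. Its log2 fold change was 2.51 ± 1.92 (SE; edgeR adjusted p = 0.399) in tdT- and 4.31 ± 2.09 (SE; edgeR adjusted p = 0.258) in tdT+ dCAMs, neither of which passed. Marco passed in tdT- dCAMs without mouse 175 (adjusted p = 0.00979), in tdT+ dCAMs without mouse 179 (adjusted p = 0.0337) and in both with mouse as a replicate block (adjusted p = 0.0395 and 0.0042). In tdT+ dCAMs Marco also passed on the 10 libraries alone (adjusted p = 0.0481) and with quality weights per library (adjusted p = 0.00177).

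Olr1 (chr6:129485244-129507165, minus strand), also called LOX-1, had 0 counts in all 10 CTL libraries. In tdT- LPS libraries it had 496, 179, 100, 0 and 13 counts, a mean of 11.1 ± 14.3 CPM (SD, n = 5), and in tdT+ LPS libraries it had 0, 0, 4, 0 and 2 counts. Counts above the floor of 3 were therefore limited to 4 tdT- LPS libraries and 1 tdT+ LPS library. Against a floor of 3 counts per library in the CTL group, the mean of the tdT- LPS libraries was at least 29.4-fold higher (edgeR adjusted p = 0.0161), and no fold is given in tdT+ dCAMs, where the mean was under that floor. This floor covers counting error only, and the tdT- CTL libraries held the fewest detected genes, 6671 to 9365. The tdT- call was lost on the 10 libraries alone (adjusted p = 0.065), with quality weights (adjusted p = 0.073) and without the 3 tdT- CTL libraries with the fewest detected genes (adjusted p = 0.0627). Cd5l (chr3:87357881-87371073, plus strand), also called AIM, had 49 counts in the tdT+ CTL library of mouse 175 and 0 in each of the other 19 libraries, so that no contrast of it is described.

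**Figure D2:**
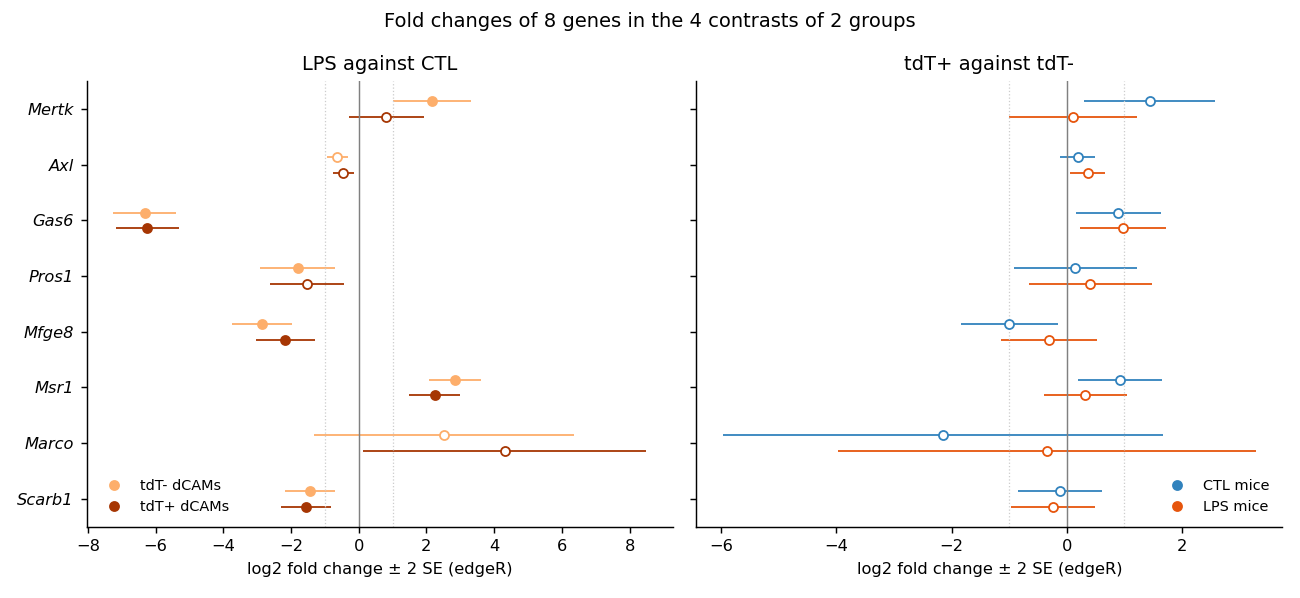
Log2 fold change (x axis) of the 8 genes with a fitted fold in all 4 contrasts, with bars of 2 SE to each side. Filled points passed the threshold and dotted lines mark a log2 fold change of 1 in either direction. Gas6 stands at -6.32 and -6.24 in the LPS contrasts, and no point is filled between tdT+ and tdT- dCAMs.

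Per kb of exon sequence (exon union of GENCODE M21), which allows levels of different genes to be compared, Gas6 was the highest of the 10 genes in CTL libraries, at 215 ± 103 CPM per kb in tdT- and 399 ± 20.01 in tdT+ dCAMs (SD, n = 5). Axl was next, at 158 ± 11.6 and 180 ± 25.4 CPM per kb, and it overlapped Gas6 in tdT- but not in tdT+ libraries. After LPS the order was Msr1, Axl and Mertk in both populations, each without overlap with the next gene in the order. Their levels were 212 ± 47.1, 102 ± 23.3 and 49.9 ± 5.82 CPM per kb in tdT- and 266 ± 46.7, 131 ± 10.7 and 53.6 ± 7.06 in tdT+ dCAMs. Gas6 stood at rank 8 and rank 6, at 2.68 ± 0.732 and 5.29 ± 3.36 CPM per kb.

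The ratio of the TAM ligands within a library turned over. Gas6 per kb was 1.25 to 122 times Pros1 in tdT- CTL libraries (median 5.15) and 5.43 to 14.7 times in tdT+ CTL libraries (median 7.09). In LPS libraries it was 0.0977 to 0.332 times Pros1 in tdT- (median 0.193) and 0.142 to 0.503 times in tdT+ dCAMs (median 0.178). Gas6 was thus above Pros1 in each of the 10 CTL libraries and below it in each of the 10 LPS libraries. Between the receptors, Axl per kb was 7.59 to 897 times Mertk in tdT- CTL libraries, 3.97 to 11.5 times in tdT+ CTL, 1.51 to 2.84 times in tdT- LPS and 2.01 to 3.08 times in tdT+ LPS libraries, so that Axl stayed above Mertk in all 20. The value of 897 belongs to mouse 174, in which Mertk had 5 counts. Msr1 per kb was 1.04 to 10.2 times Scarb1 over the CTL libraries and 25.2 to 111 times over the LPS libraries. These ratios are descriptions and were not tested.

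**Figure D3:**
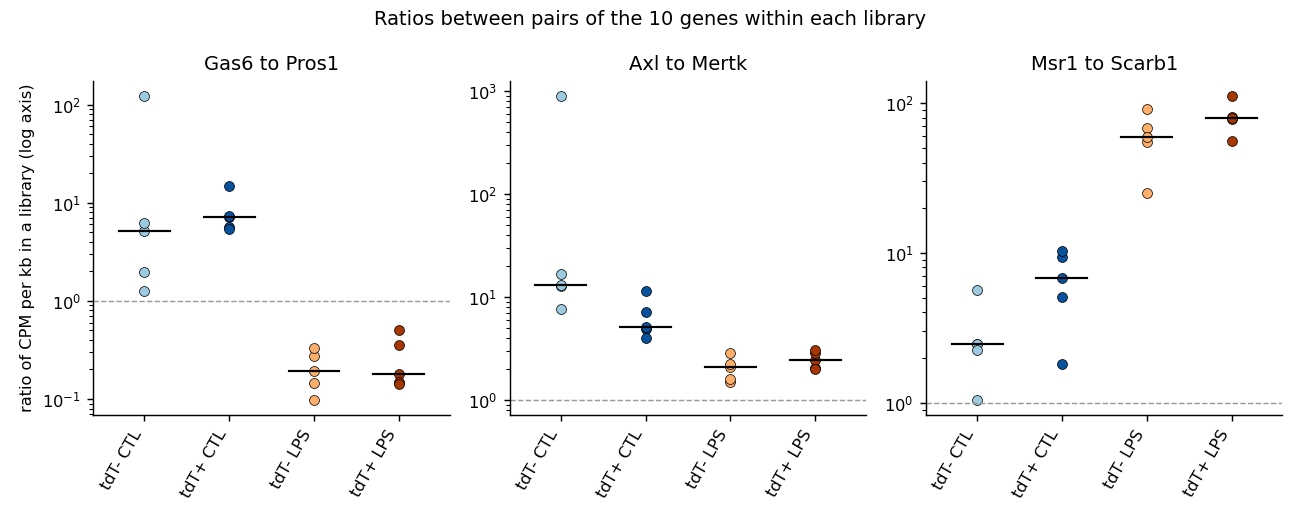
Ratio of CPM per kb between 2 genes in the same library on a log axis, by group. Points are libraries, black bars are medians and the dashed line marks equal levels. The Gas6 to Pros1 ratio is above 1 in all CTL and below 1 in all LPS libraries, where its medians are 0.193 (tdT-) and 0.178 (tdT+).

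The label was the second comparison: whether dCAMs with a Ccr2-expressing origin after depletion differ from their unlabeled neighbors in the same dura. In CTL mice 0 of the 10 genes passed (edgeR), beside 4.28% of all genes (3.01% higher and 1.27% lower in tdT+), and 5 had an unadjusted p under 0.05 when Cd5l with its 1 library is counted, as had 3913 of the 16632 genes tested. Msr1, Mertk and Gas6 were each higher in the tdT+ library in 5 of 5 mice, with log2 fold changes (tdT+ against tdT-) of 0.93 ± 0.36 (SE; edgeR adjusted p = 0.138), 1.44 ± 0.57 (SE; edgeR adjusted p = 0.14) and 0.89 ± 0.37 (SE; edgeR adjusted p = 0.158). Mfge8 was lower in the tdT+ library in 5 of 5 mice, with a log2 fold change of -1.0 ± 0.42 (SE; edgeR adjusted p = 0.164). Gas6 was the 1 gene whose tdT+ and tdT- CTL libraries did not overlap, beside 3.78% of all genes. The intervals of 2 SE reached from 0.16 to 1.63 for Gas6 and from 0.31 to 2.58 for Mertk, and so include differences of over 2-fold. Axl was also higher in tdT+ in 5 of 5 mice, by 0.19 ± 0.15 on the log2 scale (SE; edgeR adjusted p = 0.515). The share of all genes that agreed in 5 of 5 mice was not determined, here or in LPS mice. These counts of mice therefore do not set the genes apart from others.

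Calls in this comparison varied with the fit. With mouse as a replicate block, Mertk passed in limma-voom (log2 fold change 2.31, adjusted p = 0.0329), and Msr1 passed in edgeR with a term per mouse (log2 fold change 1.16, adjusted p = 0.0298). Mertk also passed without mouse 174 (log2 fold change 1.26, adjusted p = 0.00701), and Msr1 without the 3 tdT- CTL libraries with the fewest detected genes, those of mice 174, 177 and 179 (log2 fold change 1.17, adjusted p = 0.0383). Genes with at least 10 counts numbered 6671 to 9365 in tdT- CTL against 10024 to 11032 in tdT+ CTL libraries, and sums of the dendritic cell markers were 767 to 3346 against 222 to 401 CPM. Their part in the differences between the populations was not tested.

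In LPS mice 0 of the 10 genes passed between tdT+ and tdT- dCAMs (edgeR), beside 0.0301% of all genes, all of them lower in tdT+. Axl and Msr1 were higher in the tdT+ library in 5 of 5 mice, with log2 fold changes of 0.37 ± 0.15 (SE; edgeR adjusted p = 0.913) and 0.32 ± 0.36 (SE; edgeR adjusted p = 1), and Gas6 in 4 of 5, with 0.98 ± 0.37 (SE; edgeR adjusted p = 0.913). Olr1 was lower in tdT+ in 4 of 5 mice and at 0 in both libraries of mouse 60, with an adjusted p of 0.913 in edgeR and 0.0177 in limma-voom with quality weights. All 10 genes overlapped between the populations, beside 1.79% of all genes that did not. Unadjusted p-values were under 0.05 for 3 of the 10 genes, Axl, Gas6 and Olr1, and for 899 of all 16632 genes.

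The LPS effects of the populations were then set against each other in 1 interaction term. None of the 10 genes passed (0 in edgeR, beside 1.26% of all genes, 0.0902% with a higher and 1.17% with a lower effect in tdT+), and none had an unadjusted p under 0.05, where 2181 of the 16632 genes did. For Olr1 and Cd5l, with whole groups at 0, the SEs were 16819.5 and 14017.5 log2 units. The term could not have passed for them, so the count says nothing about these genes. Mertk, past the threshold in tdT- and not in tdT+ dCAMs, had a difference of -1.34 ± 0.79 on the log2 scale (tdT+ minus tdT-, SE; edgeR adjusted p = 0.533), with an interval of -2.92 to 0.24. For Pros1 the difference was 0.26 ± 0.76 (adjusted p = 1), for Gas6 0.08 ± 0.51 (adjusted p = 1) and for Msr1 -0.60 ± 0.51 (adjusted p = 0.79). The interval for Gas6, -0.94 to 1.11, is narrow beside its LPS effect of over 6 log2 units in each population.

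To place the 10 genes, 7 lists of genes for the clearance of dying cells and for scavenging were read from the same fit. Over their 86 tested genes other than the 10, 33.7% passed in tdT- dCAMs (13 higher and 16 lower, beside 11.5% of all genes) and 29.1% in tdT+ dCAMs (9 higher and 16 lower, beside 5.89%). The lists were written with earlier results of these data known, so the shares are no test of the lists. All genes here include those with totals as low as 10 counts over the 20 libraries. The median log2 fold change of these 86 genes, with genes undetected in 1 group set to their bound against the floor, was 0.06 in tdT- and -0.17 in tdT+ dCAMs, beside 0.02 and 0.01 over all genes. Genes at or under the floor in both groups kept their fitted value.

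Among 15 other receptors for apoptotic cells, 5 fell and 0 rose in tdT- dCAMs, and 6 fell and 1 rose in tdT+ dCAMs. The lipid sensor Trem2 fell in both populations, with log2 fold changes of -2.98 ± 0.31 and -3.12 ± 0.31 (SE; edgeR adjusted p = 1.03e-06 and 5.71e-07), and the fatty acid and thrombospondin receptor Cd36 fell with -3.08 ± 0.38 and -2.83 ± 0.38 (adjusted p = 1.21e-05 and 2.78e-05). Stab1, a stabilin that binds phosphatidylserine, fell with -1.29 ± 0.22 and -2.25 ± 0.23 (adjusted p = 0.000369 and 6.37e-07). The gene that rose in tdT+ dCAMs was Cd300lf, with 6.39 ± 1.17 (SE; edgeR adjusted p = 0.000995). In tdT- dCAMs Cd300lf was at 2.53 ± 0.97 (SE; edgeR adjusted p = 0.091), which did not pass. The median of the list, with bounds, was -1.24 in tdT- and -1.27 in tdT+ dCAMs, and the fitted values gave -1.24 and -2.25.

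Of 14 tested bridging molecules and opsonins, 3 rose and 5 fell in tdT- dCAMs and 2 rose and 3 fell in tdT+ dCAMs. Those higher in both were Ptx3, a pentraxin, with log2 fold changes of 7.74 ± 1.45 and 8.17 ± 1.49 (SE; edgeR adjusted p = 0.000963 and 0.000947), and Thbs1, thrombospondin 1, with 3.65 ± 0.77 and 5.15 ± 0.83 (adjusted p = 0.00289 and 0.000243). Complement C3 rose in tdT- dCAMs, with 3.75 ± 0.97 (SE; edgeR adjusted p = 0.0134), and did not pass in tdT+ dCAMs, with 2.72 ± 0.93 (adjusted p = 0.0959). Those lower in both were Apoe (-1.61 ± 0.20 and -1.78 ± 0.20) and the complement C1q chains C1qc (-1.55 ± 0.19 and -1.52 ± 0.19) and C1qa (-1.32 ± 0.22 and -1.29 ± 0.22), with edgeR adjusted p-values between 2.39e-06 and 0.0004. The list thus held genes that moved with Gas6 and Mfge8 and others that moved the opposite way. Its median with bounds was -0.96 in tdT- and -0.28 in tdT+ dCAMs.

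Of 15 engulfment genes 2 rose and 2 fell in tdT- dCAMs, and 1 rose and 2 fell in tdT+ dCAMs. The Rac activator Vav1 rose (1.29 ± 0.17 and 1.09 ± 0.17), as did the actin regulator Wasf2 in tdT- dCAMs (1.30 ± 0.40), while Elmo1, a partner of the Rac activator Dock1 (-1.76 ± 0.58 and -2.58 ± 0.59), and the myosin Myo1f (-1.85 ± 0.43 and -2.15 ± 0.43) fell, with edgeR adjusted p-values from 1.94e-05 to 0.0491. The list had a median of 0.47 and 0.14.

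Of 16 genes for digestion and lipid handling 3 rose and 1 fell in tdT- dCAMs, and 1 rose and 1 fell in tdT+ dCAMs. The lysosomal lipase gene Lipa fell (-1.25 ± 0.39 and -2.27 ± 0.40, SE) and the mitochondrial carrier Ucp2 rose (1.07 ± 0.15 and 1.06 ± 0.15) in both, with edgeR adjusted p-values from 5.86e-05 to 0.0385. The cholesterol exporter Abca1 rose in tdT- dCAMs, with 1.27 ± 0.40 (SE; edgeR adjusted p = 0.0421). Nr1h3, the oxysterol-sensing nuclear receptor LXR alpha, was at 0 counts in all 5 tdT- CTL libraries and averaged 47.1 CPM in tdT- LPS libraries. Against the floor it was at least 125-fold higher (edgeR adjusted p = 0.000311). The floor covers counting error only, and the tdT- CTL libraries had the fewest detected genes. The mean of Nr1h3 was 6.81 CPM in tdT+ CTL and 27.0 CPM in tdT+ LPS libraries, and it was the 1 list gene that passed the interaction (edgeR adjusted p = 0.0205), a fold that rests on the libraries at 0. The median was -0.0058 and -0.29.

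Of 19 other scavenger receptors 2 rose and 4 fell in tdT- dCAMs, and 1 rose and 5 fell in tdT+ dCAMs, against which Msr1 rose. The LPS co-receptor Cd14 rose (1.87 ± 0.20 and 1.98 ± 0.20, SE; edgeR adjusted p = 1.29e-06 and 5.99e-07). The beta-glucan receptor Clec7a fell (-3.58 ± 0.43 and -3.97 ± 0.44; adjusted p = 8.81e-06 and 2.55e-06), with Cd36 and Stab1, which are in this list as well. Scara3 was at 0 in all tdT- CTL libraries and, against the same floor, at least 17.2-fold higher in tdT- LPS libraries (edgeR adjusted p = 0.00569). The median with bounds was -0.027 in tdT- and -0.28 in tdT+ dCAMs, where the fitted values gave -0.71 and -0.41.

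Of 10 genes for receptor shedding and for signals that hold phagocytes back, 3 rose and 1 fell in each population. Cd47 rose, the ligand that restrains uptake through Sirpa (1.92 ± 0.17 and 2.15 ± 0.17, SE; edgeR adjusted p = 1.34e-07 and 2.75e-08), as did the inhibitory receptor Pilra (1.88 ± 0.49 and 3.40 ± 0.53; adjusted p = 0.0145 and 0.000148). Rhbdf2, the iRhom that carries the sheddase Adam17, rose in tdT- dCAMs with 2.48 ± 0.63 (SE; edgeR adjusted p = 0.0109), and Rhbdf1 fell there with -2.55 ± 0.83 (SE; edgeR adjusted p = 0.0472). In tdT+ dCAMs Rhbdf2 and Rhbdf1 were at 1.70 ± 0.61 and -2.52 ± 0.83 (SE; edgeR adjusted p = 0.114 and 0.0797), which did not pass. Sirpa fell in tdT+ dCAMs with -1.65 ± 0.16 (SE; edgeR adjusted p = 4.79e-07), and Pecam1, at 3 counts or fewer in all tdT+ CTL libraries, was at least 33.9-fold higher in tdT+ LPS libraries (edgeR adjusted p = 0.000649). The median was 1.09 and 0.51.

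**Figure D4:**
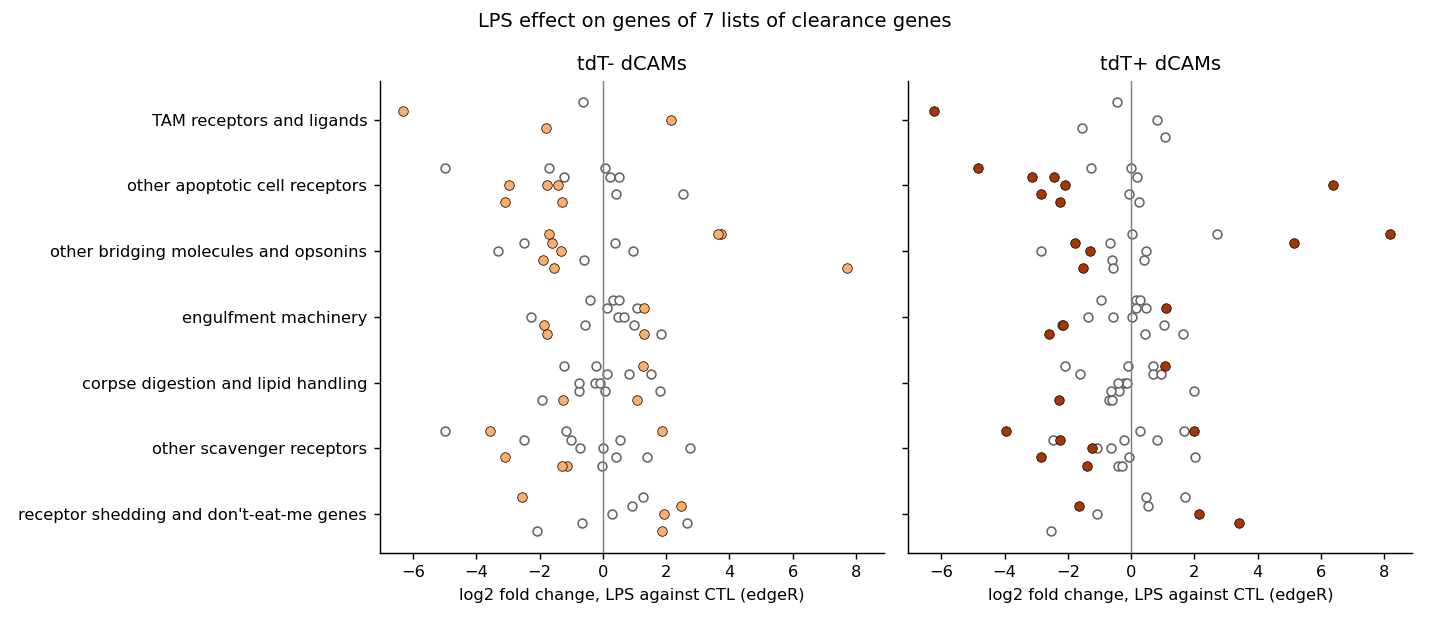
Log2 fold change of LPS against CTL (x axis) for the genes of 7 lists (y axis), in tdT- and tdT+ dCAMs. Filled points passed the threshold. Genes at 3 counts or fewer in every library of the LPS or the CTL group, but not of both, are left out. Genes at 3 counts or fewer in every library of both groups are plotted at their fitted value. In the list of other apoptotic cell receptors 5 and 6 genes fell.

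Between tdT+ and tdT- dCAMs of CTL mice, 11.6% of the 86 list genes passed (6 higher in tdT+ and 4 lower, beside 4.28% of all genes), and in LPS mice 0 passed (edgeR). Higher in tdT+ CTL were the scavenger receptors Stab1 (1.16 ± 0.22, SE; edgeR adjusted p = 0.0029) and Cd163 (1.5 ± 0.38; adjusted p = 0.0237), the complement gene C4b (1.69 ± 0.41; adjusted p = 0.0178) and the nuclear receptor Rxra (2.32 ± 0.54; adjusted p = 0.0145). Nr1h3 and Scara3, at 0 in tdT- CTL libraries, were at least 18.1-fold and 12.5-fold higher against the floor, which covers counting error only (edgeR adjusted p = 0.00497 and 0.0172). Lower were the bridging molecules Lgals3 (-1.99 ± 0.38; edgeR adjusted p = 0.0035) and Anxa1 (-1.87 ± 0.39; adjusted p = 0.00565), the receptor Cd300lf (-4.40 ± 1.07; adjusted p = 0.02) and Pecam1, at least 11.9-fold (adjusted p = 0.00416).

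For members whose log2 CPM averaged 4 or more, the gene with the most similar profile was sought among 5822 genes, by the root mean square difference of centered log2 CPM over the 20 libraries. It was Unc93b1 for Axl (0.23 log2 units), Emp3 for Scarb1 (0.41), the MHC class II gene H2-Ab1 for Mfge8 (0.48), Ehd1 for Msr1 (0.50), Zfp710 for Pros1 (0.61) and Hpgd for Gas6 (0.94). Hpgd, which encodes the enzyme that inactivates prostaglandins, averaged 778 and 811 CPM in tdT- and tdT+ CTL libraries and 6.54 and 9.35 CPM in tdT- and tdT+ LPS libraries. H2-Ab1 averaged 21210 and 15066 CPM in CTL and 4553 and 3825 CPM in LPS libraries in the same order. No gene matched Gas6 more closely than 0.94 log2 units.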

How the data were processed

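The low-input library kit amplified cDNA by PCR and kept neither strand nor molecular identifiers, so the floor of 3 counts covers counting error only, while SEs and intervals from the fit include the spread between mice. Values deposited by the authors are unscaled counts of reads per gene, made with bcl2fastq 2.20, STAR 2.7.11a and featureCounts 2.0.6, per the submitters' processing notes. The sources name more than 1 genome build, so coordinates and lengths, from GRCm38 with GENCODE M21, only locate genes. Groups came from the labels. Of 33243 genes, those with a total count of at least 10 (16632) were scaled by TMM and fitted over all 20 libraries with edgeR 4.0.16 (quasi-likelihood, R 4.3.3), with 1 mean per group, 5 contrasts and Benjamini-Hochberg adjustment. The SE follows from the F statistic, and intervals are 2 SE to each side. Scripts were tested on simulated data. Alternatives used DESeq2 1.42.0, limma 3.58.1 (voom), other filters, scalings and libraries, thinned counts and left-out mice. Libraries with the same mouse number come from the same animal. The correlation of their deviations from the group means was -0.0046 to 0.0461 in CTL and 0.228 to 0.449 in LPS mice. The reported fit has no term for mouse or for the letter F or M of the titles. The 10 genes and all lists were chosen with earlier results of these data known. Genes named are the 10, the 3 of smallest p per list, direction and contrast among those that passed, and the most similar genes, 1 of which is not reported here. Promoter sequences are from RefSeq (GRCm38) and matched 8 of the 10 genes.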

Additional observations from a re-analysis of the deposited data

Results flagged for a closer look

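Of the 40 combinations of gene and group examined, 3 held 1 library far from the other 4 of its group by Dixon's criterion. For continuous values chance flags about 1 in 20 groups. In these 3 the other 4 libraries were at 0, where any value above 0 meets the criterion, so that rate does not apply. Marco was at 25.9 CPM in the tdT- CTL library of mouse 175 and at 0 in the other 4 tdT- CTL libraries. Marco was at 5.67 CPM in the tdT+ CTL library of mouse 179 and at 0 in the other 4 tdT+ CTL libraries. Cd5l was at 5.20 CPM in the tdT+ CTL library of mouse 175 and at 0 in the other 4.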

How the results depend on the processing

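The number of the 10 genes past the threshold in tdT- dCAMs after LPS was 7, and it was 3 with only the 10 libraries compared (Gas6, Mfge8 and Msr1), 4 with voom and quality weights per library, and 5 to 7 without 1 mouse. In tdT+ dCAMs it was 4, with 4 to 6 over all alternatives and 4 to 5 without 1 mouse. Between the populations in CTL mice the 0 became 1 with mouse as a replicate block in voom (Mertk), 1 with the paired fit in edgeR (Msr1), 1 without the 3 tdT- CTL libraries with the fewest genes (Msr1, an alternative chosen after seeing the data), and 0 to 1 without 1 mouse. In LPS mice the 0 became 1 with quality weights (Olr1). For the difference of the LPS effects the 0 became 1 with the replicate block in voom (Olr1, at 0 in all CTL libraries). The blocked fits changed no other call than these and those of Pros1 and Marco given above. Of 374 values of single genes in the LPS contrasts under alternatives, 345 kept direction and side of the threshold and 0 changed sign.

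Signs changed only for values that did not pass. Between the populations in CTL mice, Pros1 was at -0.60 (log2) without the 3 libraries, and without 1 mouse Pros1 ranged from -0.26 to 0.84, Scarb1 from -0.48 to 0.14 and Marco from -9.21 to 7.15. In LPS mice Marco was at 1.32 and 0.32 with the block in voom and edgeR and 1.25 with quality weights, and Scarb1 ranged from -0.34 to 0.057 without 1 mouse. The difference for Gas6 was -0.21 and -0.24 with the block, -0.16 with quality weights and -0.012 without the 3 libraries, and that for Pros1 was -0.41 and -0.024 with the block and -0.54 with quality weights. Without 1 mouse the difference ranged from -0.24 to 0.34 for Gas6, -0.42 to 0.67 for Pros1, -0.36 to 0.24 for Scarb1 and -7.47 to 8.86 for Marco. The cause was not tested. No value is given for Cd5l or Olr1 where both groups were at 0, and both were removed by the stricter filter of edgeR (filterByExpr). Marco, Olr1 and Cd5l had 0 counts in 9, 14 and 19 libraries, and what set these zeros was not tested.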
